A study of Homo sapiens with 4 samples.

Results

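The cytosolic heat shock proteins are represented here by 10 genes, HSPA1A, HSPA1B, HSPA8, HSPA4, HSPH1, HSP90AA1, HSP90AB1, DNAJB1, HSPB1 and BAG3, chosen by name as targets of the heat shock factor HSF1. All 10 matched a single Ensembl identifier among the 60658 in the tables. All 10 were among the 14803 genes that were compared, those with a mean of at least 1 FPKM over the 4 libraries. FPKM counts fragments per kilobase of transcript, scaled to the fragments mapped in the library. It is a level per length, so it can be compared between genes. The study knocked down TMEM161A, a gene for a transmembrane protein, in cells labelled as the established human colorectal cancer lines HT29 and LIM1215. In each line, 1 library came from cells with a negative control siRNA, and 1 from cells with an siRNA against TMEM161A, titled si2. Both libraries of a line thus come from cells given an siRNA, no library from untreated cells was analysed here, and the time after transfection is not given in the sources used here. With 1 library per group there was no replicate and no test, and the second line is the sole repeat of any comparison.

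Heat shock proteins are chaperones that bind unfolded or newly made proteins and help them fold. In the cytosol, HSP70 proteins bind short hydrophobic stretches, J-domain proteins such as DNAJB1 bring them their clients, and exchange factors such as HSPH1 and BAG3 release the nucleotide that locks the client in place. HSP90 proteins act later, on nearly folded clients such as kinases and steroid receptors. HSF1 raises these genes when unfolded proteins build up in the cytosol, by binding heat shock elements, which are inverted repeats of a short unit in their promoters. The endoplasmic reticulum (ER) has its own HSP70, HSPA5 (also called BiP), which is raised by another system, the unfolded protein response, whose factors ATF6 and XBP1 act on ER stress elements. Cancer cells often depend on abundant cytosolic chaperones.

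The promoters are shown because most of the 10 genes and HSPA5 are known for different elements. Each line gives 120 bases, 5′ to 3′ on the gene's strand, from RefSeq on GRCh38.p14. The stretch runs from 120 bases upstream to the last base before the annotated start, except for HSP90AB1, where it runs from 180 to 61 bases upstream. For HSP90AA1 the second of 2 annotated starts in the table is used, and for HSP90AB1 the third of 3. In the first 5 genes, capitals mark GAANNTTC or TTCNNGAA, that is 2 inverted heat shock units with 2 bases between them, and a longer run of capitals is 3 units in turn. In HSPA5, capitals mark CCAAT and CCACG with 9 bases between them, the ER stress element.
HSPA1A, chr6:31815423-31815542, plus strand: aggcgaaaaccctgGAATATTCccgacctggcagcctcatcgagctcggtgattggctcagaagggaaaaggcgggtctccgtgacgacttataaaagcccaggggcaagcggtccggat
HSPA1B, chr6:31827618-31827737, plus strand: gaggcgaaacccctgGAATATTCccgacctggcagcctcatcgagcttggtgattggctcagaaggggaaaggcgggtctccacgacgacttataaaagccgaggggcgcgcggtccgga
HSPA8, chr11:123062137-123062256, minus strand: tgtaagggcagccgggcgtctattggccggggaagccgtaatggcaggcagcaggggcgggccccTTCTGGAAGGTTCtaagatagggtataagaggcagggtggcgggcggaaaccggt
HSP90AA1, chr14:102087045-102087164, minus strand: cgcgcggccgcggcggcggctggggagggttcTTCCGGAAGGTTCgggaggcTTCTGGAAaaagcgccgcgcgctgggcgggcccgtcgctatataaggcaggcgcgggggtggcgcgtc
HSP90AB1, chr6:44247763-44247882, plus strand: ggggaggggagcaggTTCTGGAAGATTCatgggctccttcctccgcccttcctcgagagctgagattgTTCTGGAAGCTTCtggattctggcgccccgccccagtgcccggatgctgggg
HSPA5, chr9:125241344-125241463, minus strand: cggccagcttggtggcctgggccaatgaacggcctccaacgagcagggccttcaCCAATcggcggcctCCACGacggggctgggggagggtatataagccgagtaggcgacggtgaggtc

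HSPA8, HSP90AA1 and HSP90AB1 each held at least 1 triple of units in the windows searched, which span 250 bases before to 50 after each annotated start, on both strands. A triple was found in 3 of the 15 windows of the 10 genes and in 0.490% of the 35116 such windows of the RefSeq table. HSPA8 held a second triple, 230 bases upstream and outside the printed stretch. HSPA1A and HSPA1B each held 1 pair, 106 and 105 bases upstream of the start, and the 250 bases before their starts were 93.6% identical. Pairs, which every triple contains, were found in 8 of the 15 windows of the 10 genes (53.3%), against 13.5% of all windows. By gene, that is 7 of 10, against 16.2% of the 27305 genes in the table. HSPB1 held 1 pair, at 182 bases upstream, and DNAJB1 held pairs in 2 of its 3 windows. The letters were not in the windows of HSPA4, HSPH1 and BAG3. None of the 10 genes held the ER stress element. HSPA5 and 17 of the 18 other ER chaperones listed for comparison had a window in the table. The element was in 6 of these 18 genes (33.3%), against 0.0916% of the 27305 genes. By window it was in 8 of 23 (34.8%), against 0.0769% of all windows, but overlapping CANX windows hold the same site. The 10 genes were chosen as targets of HSF1, which binds such units, so their higher share is not an independent result. The same holds for the ER stress element in genes listed as ER chaperones. HSPA1A and HSPA1B, with nearly the same promoter, count as 2 of the 7 genes with a pair. A match is a description of letters and not a bound site. Only exact letters in these windows were searched, so the lack of a match does not show that a gene has no element.

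**Figure D1:**
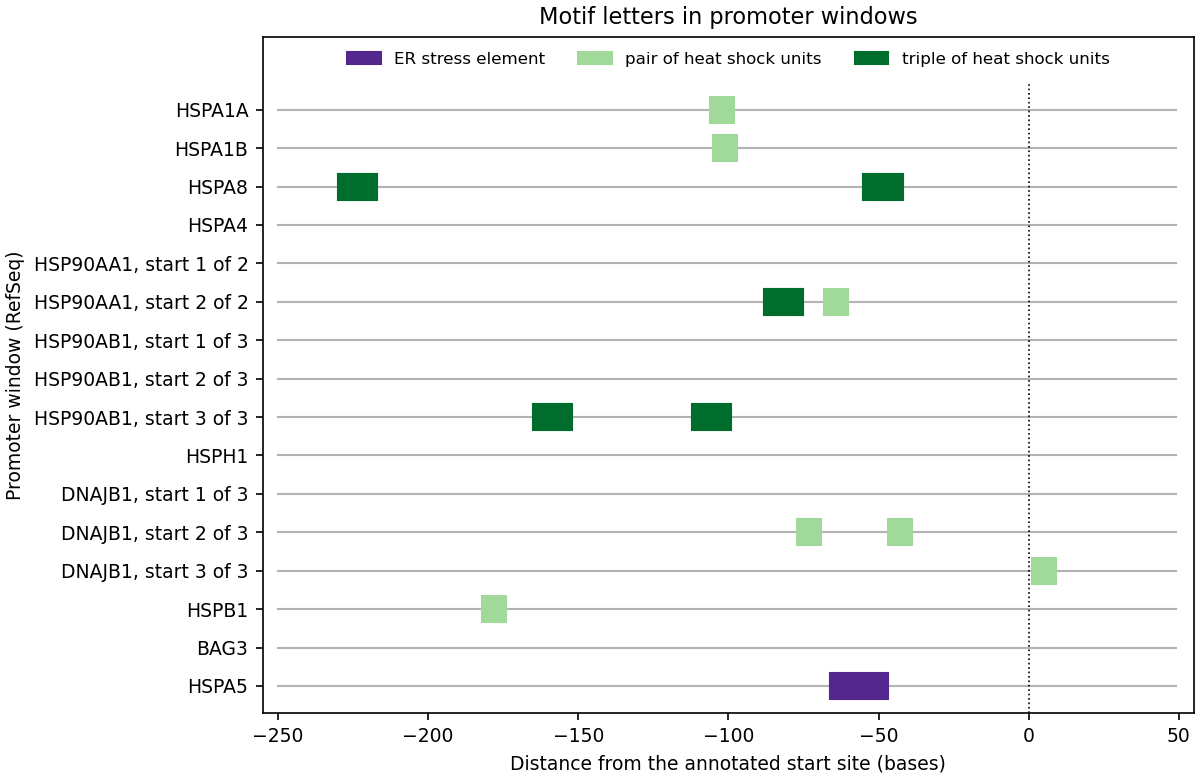
Promoter windows of the 10 heat shock genes and HSPA5, 1 line per annotated start, with the distance from the start site in bases on the x axis. Light green boxes are pairs of heat shock units, dark green boxes are triples, and the purple box is the ER stress element. The triples lie in HSPA8, HSP90AA1 and HSP90AB1, and HSPA5 alone among these genes shows the ER stress element.

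The libraries were checked as wholes. Between 23397 and 23935 genes per library had a value above 0. The estimated depth behind 1 FPKM was 18.12 to 21.54 fragments per kilobase of transcript. The targeted gene, TMEM161A, had 42.6 FPKM with the control siRNA and 4.64 with its own siRNA in HT29, and 39.1 and 7.61 in LIM1215, which matches the labels. Of 8 colorectal epithelial markers, EPCAM, KRT8 and KRT18 were at 154 FPKM or more in every library. CDX2 was at 8.29 and 8.04 FPKM in HT29 and at 96.8 and 150 in LIM1215, control then knockdown. The other 4, CDH17, VIL1, KRT20 and LGALS4, were at 67.8 FPKM or more in both LIM1215 libraries and under 1 in both HT29 libraries. All 8 are markers of colorectal epithelium, so the near absence of these 4 goes against the label of a colorectal line, HT29. The identity of the cells labelled HT29 was not tested, nor was the bearing of these markers on the HT29 values. Of 7 markers of other cell types, PTPRC and HBB were listed at 0 in all 4 libraries, and COL1A1 alone had a mean of at least 1 FPKM. COL1A1 was at 17.6 and 16.0 FPKM in HT29 and at 4.83 and 8.56 in LIM1215, control then knockdown.

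None of the 10 genes differed by 2-fold or more between the knockdown and control library of either line. In bulk RNA, fewer cells of a type and less RNA per cell cannot be told apart. In the same comparison, 3.80% of all genes in HT29 and 3.46% in LIM1215 did, in either direction. Of the 10 genes, 6 were higher in the knockdown library of both lines: HSPA1A, HSPA1B, HSPA8, HSP90AA1, HSP90AB1 and DNAJB1. Across all genes, 36.0% were higher in both lines. HSPB1 and HSPA4 were lower in both knockdown libraries, as were 28.0% of all genes. HSPH1 and BAG3 were higher in the HT29 and lower in the LIM1215 knockdown library. The median log2 ratio of FPKM + 1, knockdown over control, was 0.26 in HT29 and 0.17 in LIM1215, against 0.04 and 0.02 over all genes compared. The LIM1215 median rested in part on HSPA1A, the gene with the fewest fragments, and was 0.10 without it. At 1.5-fold, 1 gene was past the threshold in HT29, HSPA1B, against 14.8% of all genes, and 1 in LIM1215, HSPA8, against 12.8%. The genes were proposed with earlier results of these libraries known, and a share near the background says nothing particular about them.

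The constitutive HSP70, HSPA8 (ENSG00000109971, chromosome 11, 123057489 to 123063230, minus strand, GRCh38), carries out much of the everyday folding in the cytosol. In HT29 its FPKM was 813 with the control and 977 with the TMEM161A siRNA, and in LIM1215 it was 943 and 1461. Both knockdown libraries were above both controls. Relative to control, HSPA8 stood at 120% in HT29, with a 95% counting interval of 118% to 122%, and at 155% in LIM1215, with an interval of 153% to 157%. Such exact intervals hold counting error alone and leave out differences between cultures. The log2 ratios were 0.26 and 0.63, at percentiles 74.1 and 94.4 of all genes compared. HSPA8 was the most abundant of the 10 genes in the LIM1215 knockdown library and the second in the other 3 libraries. It hosts 3 small nucleolar RNA genes in its introns, and 17 pseudogenes carry its name in the annotation. The summed FPKM of these copies was at most 0.139% of that of HSPA8 in any library.

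HSPA1A and HSPA1B encode the stress-inducible HSP70, a pair of intronless genes side by side on chromosome 6 (31815543 to 31817946 and 31827738 to 31830254, plus strand) with nearly the same coding sequence. In HT29, HSPA1B had 23.5 FPKM with the control and 38.5 with the TMEM161A siRNA, and in LIM1215 it had 19.8 and 26.1. Both knockdown libraries were again above both controls. HSPA1B had the largest log2 ratio of the 10 genes in HT29, 0.69, at percentile 94.5, and 0.38 in LIM1215. HSPA1A was at 1.32 and 1.88 FPKM in HT29 and at 1.59 and 2.29 in LIM1215, control then knockdown, on an estimated 61.7 to 102 fragments per library. These levels were 142% of control in HT29 and 144% in LIM1215, with wide counting intervals of 101% to 199% and 105% to 202%. Of all stretches of 100 bases in the HSPA1A transcript, 72.4% also occur in that of HSPA1B, and how the authors treated fragments that fit both is not given in the sources used here. The split between the pair is therefore uncertain, and their sum is the safer measure. The summed FPKM in HT29 was 24.8 with the control and 40.4 with the TMEM161A siRNA, and in LIM1215 it was 21.4 and 28.4. That was 163% of control in HT29 (152% to 175%) and 133% in LIM1215 (122% to 145%).

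The balance between the constitutive and the inducible HSP70 differed by line. In HT29, HSPA8 had 32.7 times the summed FPKM of HSPA1A and HSPA1B with the control and 24.2 times with the TMEM161A siRNA. In LIM1215 it had 44.0 and 51.4 times. The ratio was thus lower with the TMEM161A siRNA in HT29 and higher in LIM1215, and the difference was not tested. HSPA6, the HSP70 gene that is nearly silent without stress, was at most 0.114 FPKM in any library. HSPA1L, a relative beside the pair on chromosome 6, was at most 0.188.

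The HSP90 genes encode an inducible form, HSP90AA1, and a constitutive form, HSP90AB1. HSP90AA1 (ENSG00000080824, chromosome 14, 102080742 to 102139699, minus strand) had 471 FPKM with the control and 706 with the TMEM161A siRNA in HT29, and 366 and 540.1 in LIM1215. Both knockdown libraries were above both controls. The lines had nearly the same difference, 149.9% of control in HT29 (148% to 152%) and 148% in LIM1215 (145% to 150.3%). HSP90AA1 was the gene of the 10 that stood high in both lines alike, with log2 ratios of 0.58 and 0.56, at percentiles 92.0 and 92.7. It overlaps WDR20 on the other strand, and whether the authors' counting used strand is not given in the sources used here.

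HSP90AB1 (ENSG00000096384, chromosome 6, 44246166 to 44253888, plus strand) was at 1263 and 1375 FPKM in HT29 and at 1090.3 and 1172 in LIM1215, control then knockdown. These levels lay close together and the groups overlapped, with 109% of control in HT29 and 107% in LIM1215. HSP90AB1 was the most abundant of the 10 genes in all libraries but the LIM1215 knockdown library. In HT29 the inducible form made up 27.2% of the summed FPKM of the pair with the control and 33.9% with the TMEM161A siRNA. In LIM1215 it made up 25.1% and 31.5%. The share of the inducible form was thus higher in both knockdown libraries than in either control.

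DNAJB1, the main J-domain partner of inducible HSP70, lies on the minus strand of chromosome 19 (14514769 to 14560391) and overlaps TECR on the other strand. In HT29 it had 110.0 FPKM with the control and 161 with the TMEM161A siRNA, and in LIM1215 it had 107 and 126. Both knockdown libraries were above both controls, with 146% of control in HT29 (141% to 151%) and 118% in LIM1215 (113% to 123%). The log2 ratios were 0.54 and 0.24.

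The exchange factors of HSP70 did not go one way. HSPH1, an HSP110 protein, was at 53.4 and 63.6 FPKM in HT29 and at 60.6 and 56.7 in LIM1215, control then knockdown. The 4 libraries overlapped, and the log2 ratios of HSPH1 were 0.25 (HT29) and −0.10 (LIM1215). HSPA4, another member of the HSP110 branch despite its HSP70 name, was at 184 and 147 FPKM in HT29 and at 143 and 140 in LIM1215. It was at 80.1% of control in HT29 (78.4% to 81.9%), and its LIM1215 interval, 95.3% to 100.2%, included no change. HSPA4 overlaps another annotated gene, ENSG00000279691, on the same strand. BAG3, a co-chaperone that links HSP70 to small heat shock proteins and to autophagy, was at 40.8 and 49.2 FPKM in HT29 and at 24.0 and 22.1 in LIM1215. Both HT29 libraries of BAG3 were above both LIM1215 libraries. On the log2 scale BAG3 stood at 0.27 in HT29 and at −0.12 in LIM1215, where the counting interval of 84.1% to 100.1% reached no change. HSPA4 and BAG3 in LIM1215 thus had counting intervals that included no change. With many fragments such an interval leaves out no change even for small differences, such as HSP90AB1 at 107% of control in LIM1215.

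HSPB1 (also called HSP27), a small heat shock protein that holds unfolded proteins without ATP, was lower in both knockdown libraries. On chromosome 7 (76302673 to 76304295, plus strand), it was at 512 and 438 FPKM in HT29 and at 234 and 192 in LIM1215, control then knockdown. Its level differed more between the lines than between the siRNAs. Relative to control it stood at 85.5% in HT29 (82.5% to 88.7%) and at 81.8% in LIM1215 (77.2% to 86.7%), while the LIM1215 control was at 45.7% of the HT29 control. The counting interval of HSPB1 lay below control in both lines.

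**Figure D2:**
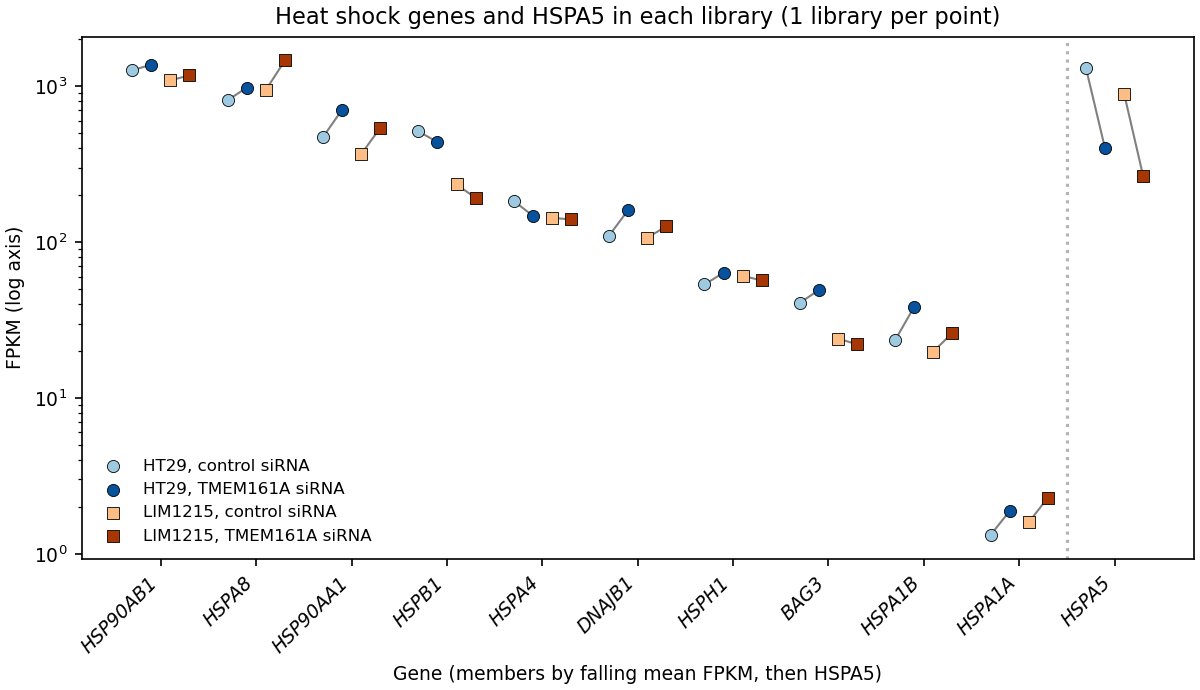
FPKM on a log axis for the 10 heat shock genes, ordered by mean level, and for HSPA5, with 1 point per library and no error bars because each group has 1 library. Circles are HT29, squares are LIM1215, pale is the control siRNA and dark is the TMEM161A siRNA. The heat shock genes keep their level within 2-fold in each line, whereas HSPA5 has 1305 and 398 in HT29 and 894 and 264 in LIM1215.

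Between the control libraries, HSPB1 was the only 1 of the 10 genes that differed by 2-fold or more, with a log2 ratio of −1.13, LIM1215 over HT29. In that comparison 19.4% of all genes passed the threshold. BAG3 followed with −0.74. In the LIM1215 control 7 of the 10 genes were lower, but the share over all genes was not computed, so this count says nothing particular about them. In every library, HSP90AB1, HSPA8, HSP90AA1 and HSPB1 were the 4 most abundant of the genes, and BAG3, HSPA1B and HSPA1A the 3 least. Together the 10 genes held 0.442% of all FPKM with the control and 0.476% with the TMEM161A siRNA in HT29, and 0.335% and 0.418% in LIM1215. The share was higher in both knockdown libraries within each line.

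The cytosolic genes did not follow HSPA5. HSPA5 (ENSG00000044574, chromosome 9, 125234853 to 125241382, minus strand) had 1305 FPKM with the control and 398 with the TMEM161A siRNA in HT29, and 894 and 264 in LIM1215. Both knockdown libraries were far below both controls, at 30.5% of control in HT29 (30.1% to 30.9%) and 29.5% in LIM1215 (29.1% to 30.0%). The log2 ratios were −1.71 and −1.76, at percentiles 0.608 and 0.588 of all genes compared. Every one of the 10 genes lay above HSPA5, as did nearly all genes compared. The gap on the log2 scale was 1.39 (HSPA4) to 2.40 (HSPA1B) in HT29 and 1.47 (HSPB1) to 2.39 (HSPA8) in LIM1215. The median of that gap was 1.97 in HT29 and 1.93 in LIM1215. A scaling of the libraries moves the genes and HSPA5 alike and so leaves the gap nearly as it is.

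The level of each of the 10 genes relative to HSPA5 was higher in the knockdown library of both lines. Nearly all genes compared share this, since HSPA5 stood at percentile 0.608 in HT29 and 0.588 in LIM1215, so it is not particular to these 10. In HT29, HSPA8 had 0.623 times the FPKM of HSPA5 with the control and 2.45 times with the TMEM161A siRNA, and in LIM1215 it had 1.05 and 5.53 times. HSP90AB1 had 0.968 and 3.45 times HSPA5 in HT29 and 1.22 and 4.44 times in LIM1215. HSP90AA1, below HSPA5 in both controls (0.361 and 0.409 times), was above it in both knockdown libraries (1.77 and 2.05 times). HSPB1 passed HSPA5 in HT29, with 0.392 times its FPKM in the control and 1.10 times in the knockdown library, and stayed below it in LIM1215, at 0.262 and 0.726 times. The summed FPKM of the 10 genes was 2.66 and 9.93 times that of HSPA5 in HT29, control then knockdown, and 3.34 and 14.2 times in LIM1215.

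**Figure D3:**
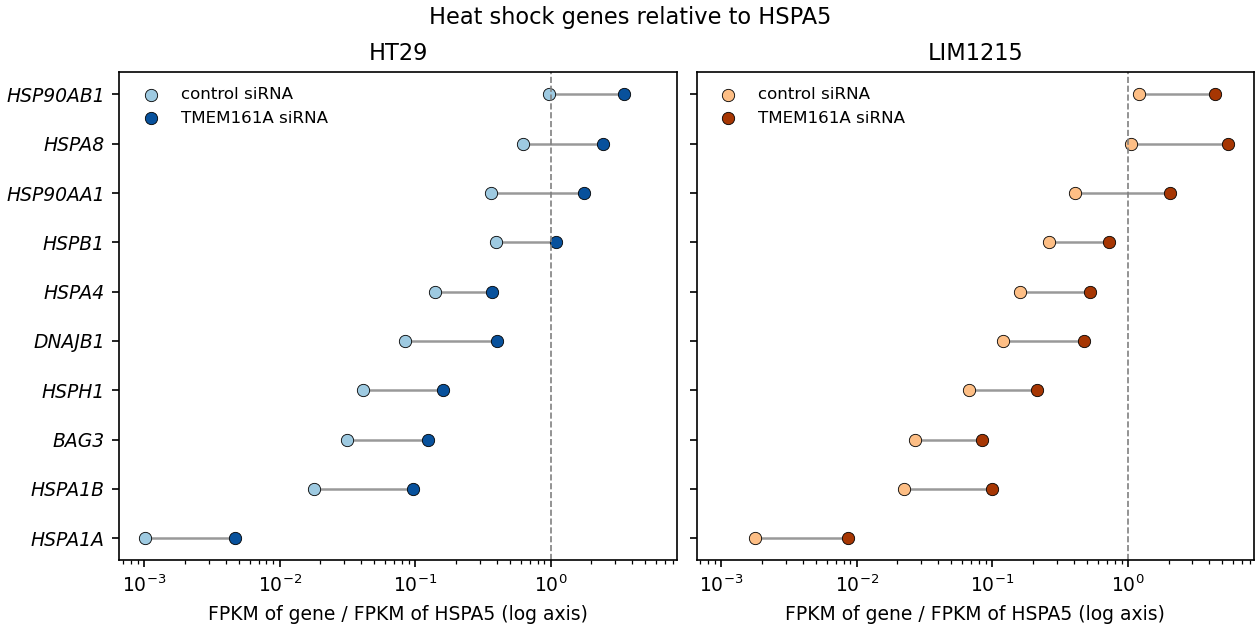
FPKM of each heat shock gene divided by the FPKM of HSPA5 in the same library, on a log axis, with HT29 on the left and LIM1215 on the right and the dashed line at equal levels. Pale points are control and dark points TMEM161A siRNA libraries, 1 library each. All 10 genes move to the right, as nearly all genes compared would, since HSPA5 has one of the lowest ratios in each line. HSP90AA1 crosses the dashed line in both cell lines.

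Other ER chaperones went the way of HSPA5. Of 18 ER genes, 9 were lower by 2-fold or more in HT29 and 7 in LIM1215, and none was higher by as much in either line. Over all genes, 3.80% in HT29 and 3.46% in LIM1215 were past 2-fold in either direction. Of the 18 ER genes, 16 were below control in both lines, against 28.0% of all genes. On the log2 scale the medians of the list were −0.97 (HT29) and −0.88 (LIM1215). SDF2L1, an ER co-chaperone, was the lowest, with −1.82 and −1.70, and DNAJB12, a J-domain protein of the ER membrane, the highest, with 0.23 and 0.06. HSP90B1, the HSP90 of the ER, had log2 ratios of −1.32 and −1.10. Its cytosolic relative HSP90AA1 had 0.58 and 0.56, and the more abundant HSP90AB1 had 0.12 and 0.10. In each line at least 15 of the 18 ER genes lay below each of the 10 cytosolic genes. That ER chaperones were lower was known from earlier results of these libraries when the list was made.

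**Figure D4:**
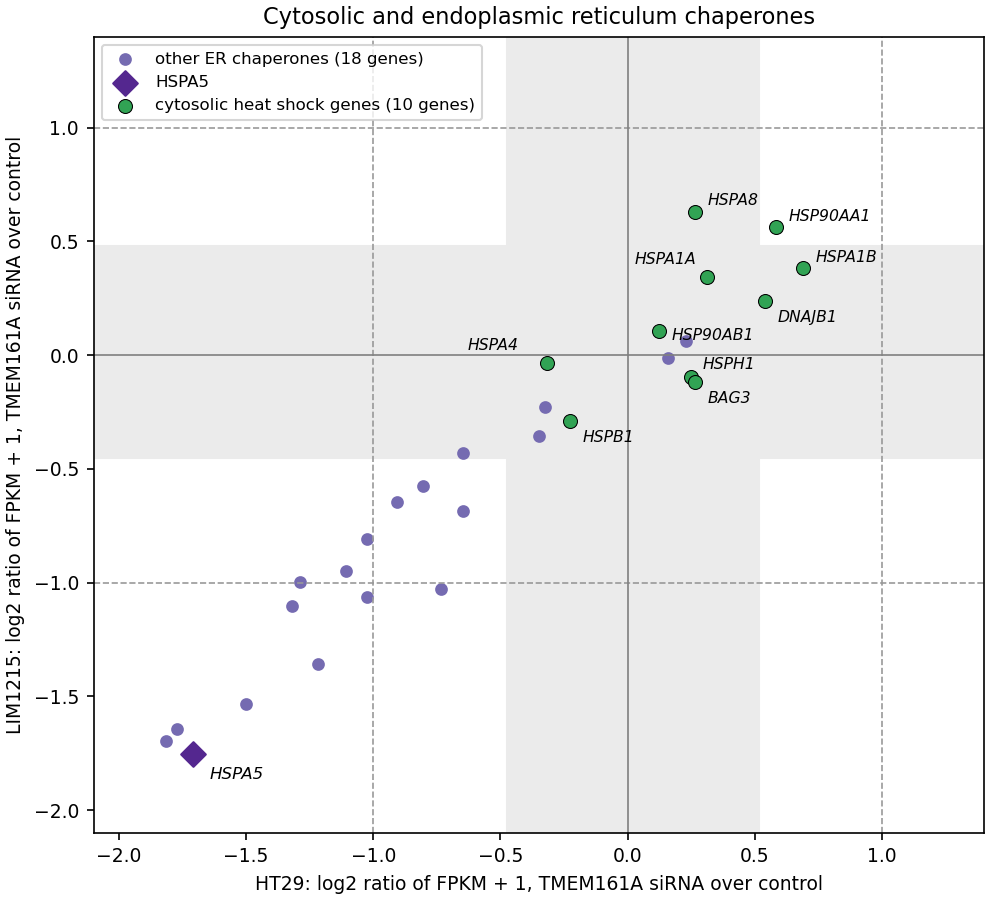
Log2 ratio of FPKM + 1, TMEM161A siRNA over control, in HT29 (x axis) and LIM1215 (y axis), with 1 point per gene. Grey bands hold the middle 80% of all genes compared in each line (from the 10th to the 90th percentile) and dashed lines mark 2-fold. The 10 cytosolic genes (green) lie between −0.32 and 0.69 in HT29, while HSPA5 (diamond) and most of the other 18 ER chaperones (purple) lie to the lower left.

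The rest of the cytosolic folding machinery was read from lists by role. Of the heat shock factors, HSF1 was at 68.9 and 87.8 FPKM in HT29 and at 67.3 and 70.6 in LIM1215, control then knockdown, with log2 ratios of 0.35 and 0.07. HSF1 overlaps DGAT1 on the other strand. HSF2 had log2 ratios of −0.42 and −0.34. HSF4, a factor best known from the lens, was at 17.9 and 30.6 FPKM in HT29 and at 13.8 and 35.5 in LIM1215. Its log2 ratio of 1.30 in LIM1215 was the only 1 past 2-fold among the cytosolic lists in either line, and it was 0.74 in HT29. HSF4 overlaps another protein-coding gene, ENSG00000265690, on the same strand, so a stranded kit would not separate them and its values are uncertain.

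Of 10 other J-domain genes, none was past 2-fold, and the medians were 0.09 in HT29 and 0.16 in LIM1215. Here and below, the highest and lowest gene of a list are by the mean of both lines. DNAJA1, a J-domain partner of HSPA8, was the highest with 0.51 and 0.50. DNAJB4 was the lowest, with −0.88 in HT29 and −0.08 in LIM1215. Other exchange factors (6 genes) had medians of 0.29 and 0.13, from BAG6 (0.35 and 0.22) to BAG2 (−0.20 and −0.19). Of 6 other HSP70 family genes, 3 reached a mean of 1 FPKM. HSPA13, whose product is found in microsomes and which is thus not a cytosolic gene of this list, had −0.81 and −0.83. HSPA4L had −0.35 and 0.14.

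Co-chaperones of HSP90 (13 genes) centred near 0, with medians of −0.04 in HT29 and −0.02 in LIM1215. CDC37, which brings kinases to HSP90, was the highest with 0.46 and 0.11, and PTGES3, the p23 co-chaperone, the lowest with −0.29 and −0.39. The chaperonin TRiC, a ring that folds actin and tubulin, had 8 subunits with medians of −0.19 in both lines. Its subunits were not alike. CCT3 had 0.54 and 0.37, while 6 of the other 7 were below control in both lines, against 28.0% of all genes, CCT8 lowest with −0.37 and −0.21. Prefoldin (6 genes), which hands clients to TRiC, had medians of 0.07 and −0.07, from PFDN1 (0.06 and 0.17) to VBP1 (−0.66 and −0.17). Of 8 other small heat shock genes, 7 were matched and HSPB8 alone reached a mean of 1 FPKM, with −0.24 and −0.02.

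Mitochondrial chaperones (6 genes) had medians of 0.07 in HT29 and −0.09 in LIM1215, with TRAP1, the mitochondrial HSP90, at 0.31 and 0.01 and HSPD1 at −0.06 and −0.18. Of 7 sensors and factors of the unfolded protein response, 2 were lower by 2-fold or more in HT29 and 1 in LIM1215. DDIT3, a stress-induced factor, was lowest with −1.45 and −1.44, and ATF6 highest with 0.16 and 0.53. XBP1 had −0.60 and −0.31, and EIF2AK3, past 2-fold in HT29 alone, had −1.03 and −0.86. Of the 7 genes, 4 were below control in both lines, against 28.0% of all genes. Another 2 were above control in both, against 36.0% of all genes, and 1 went opposite ways. The DDIT3 values matched the direction of HSPA5, and also that of HSPB1 and HSPA4, which were lower in both lines. They did not match that of the 6 cytosolic genes that were higher in both lines. Overlapping protein-coding genes in the annotation make DDIT3 (MARS1 and MBD6), CCT3 (TSACC), HSPD1 (HSPE1 and MOB4) and DNAJB4 (GIPC2) less certain. The same holds for TRAP1 (DNASE1), CDC37 (PDE4A), BAG6 (APOM), BAG2 (RAB23) and PFDN1 (CYSTM1). Pseudogenes or noncoding RNA genes overlap HSPA4L, HSPB8, PTGES3, CCT8, VBP1 and ATF6.

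**Figure D5:**
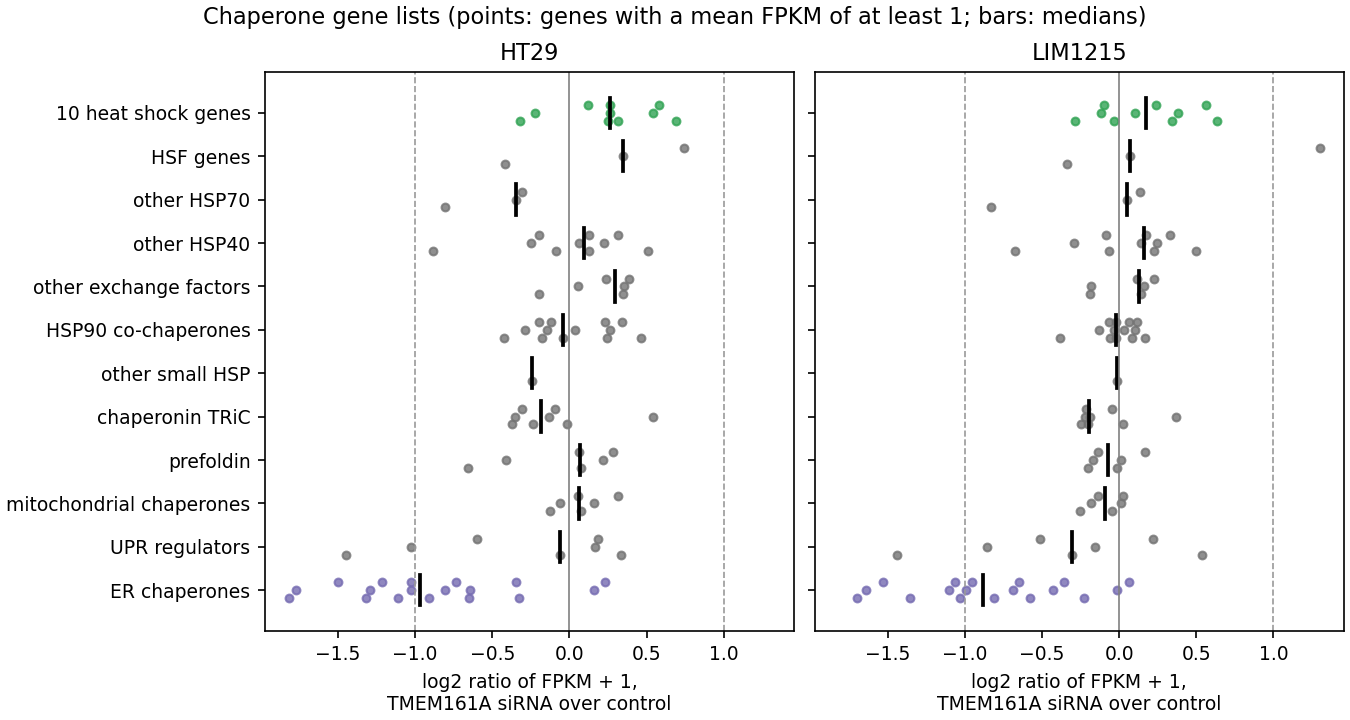
Log2 ratio of FPKM + 1, TMEM161A siRNA over control, for each gene with a mean of at least 1 FPKM, by list, in HT29 (left) and LIM1215 (right). Black bars are list medians and dashed lines mark 2-fold. The ER chaperones have medians of −0.97 and −0.88, and the medians of the cytosolic lists lie between −0.35 and 0.35. The list of other HSP70 genes is counted as cytosolic here although it holds HSPA13, whose product is found in microsomes.

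The mean profile of the 10 genes over the 4 libraries was also compared with 10517 other genes with a symbol and a mean of at least 5 FPKM. The closest by Euclidean distance of centred log2(FPKM + 1) were CASKIN2 (0.0156), INTS9 (0.0166), SLC41A1 (0.0215), ZC3H11A (0.0273) and RAPGEF1 (0.0292). With 4 libraries this is a description of small differences, and the 10 genes themselves lay farther from their own mean, from 0.122 (HSP90AB1) to 0.984 (HSPB1).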

How the data were processed

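The authors deposited 1 table of FPKM per library, with 60658 Ensembl identifiers, 4 libraries in all. Per the labels' protocols, the library kit was TruSeq Stranded mRNA. The submitters' processing notes name HISAT2 2.1.0, SAMtools 1.20, Cufflinks 2.2.1 and Cuffdiff, and GRCh38. The gene annotation and the treatment of shared fragments are not given in the sources used here.

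Symbols (for 56550 identifiers) came from GENCODE release 44 and promoters from RefSeq. Log2 ratios used FPKM plus a pseudocount of 1, which understates changes of low genes, for genes with a mean FPKM of at least 1, and a gene was called at 2-fold, with no p-value. No column went unused. The depth was estimated from the steps of low FPKM values in genes with 1 transcript, 76.9% to 79.0% of which lay within 0.03 of a whole fragment against 6% without steps. This step was tested on simulated data. Intervals of ratios are 95% exact Clopper-Pearson intervals of estimated fragments and cover counting error only.

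The members and lists were chosen with earlier results of these data known. Named genes were the 10 members, HSPA5, the heat shock factors, HSPA6, TMEM161A, the highest and lowest gene of each of 11 related lists and the 5 closest profiles; other genes named were chosen after their values were seen. Alternatives covered pseudocount, scaling, filter, threshold, the median and the reference gene. A planned comparison of protein sequences was not run. Python 3.11.15, pandas 2.3.3, numpy 2.4.6 and scipy 1.17.1 were used.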

Additional observations from a re-analysis of the deposited data

Results flagged for a closer look

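Some values had opposite signs in HT29 and LIM1215. With a single library per group, these differences were not tested. The differences are log2 ratios of knockdown over control, LIM1215 minus HT29. HSPH1 differed by −0.34 (0.25 in HT29 and −0.10 in LIM1215). BAG3 differed by −0.38 (0.27 and −0.12), and its LIM1215 counting interval included no change. HSPA4L differed by 0.48 (−0.35 and 0.14). The median of the other HSP70 family genes, 3 genes of which HSPA4L is the middle one in HT29, differed by 0.39 (−0.35 and 0.05). The median of prefoldin differed by −0.14 (0.07 and −0.07), and that of the mitochondrial chaperones by −0.16 (0.07 and −0.09). All these values lie well inside 2-fold.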

How the results depend on the processing

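The 20 log2 ratios of the 10 genes kept their sign under all 5 alternatives run on them. These were pseudocounts of 0.1 and 5, a common sum, upper quartile scaling and centring. Sizes did move. With a common sum every HT29 value was lower, with HSP90AB1 at 0.04 in place of 0.12 and HSPA8 at 0.18 in place of 0.26. The count of genes past 2-fold was 0 in each line, and 1 in each at a 1.5-fold threshold. The median was 0.26 in HT29 and 0.19 after scaling every library to the same FPKM sum. In LIM1215 it was 0.17, and 0.10 with a mean FPKM of at least 5, with HSPA1A and HSPA1B summed, or without HSPA1A, which each leave 9 genes. The median gap to HSPA5 was 1.97 in HT29 and 1.93 in LIM1215. It was 1.86 in LIM1215 with a pseudocount of 5, and 1.23 in HT29 and 1.05 in LIM1215 against the median of the other ER chaperones. The largest shift of the median of all genes under a scaling was −0.0529 (common sum, HT29). The background count was 562 genes in HT29 and 512 in LIM1215, against 181 and 156 with a pseudocount of 5, 1128 and 984 with one of 0.1, 802 and 770 with no filter, 272 and 202 with a mean FPKM of at least 5, and 273 and 202 among protein-coding genes alone. The last alternative and the one without HSPA1A were added after the data were seen. The labels give no replicate numbers to pair, and a fit with the lines as 2 pairs, which leaves 1 residual degree of freedom, was not run. Depth limits HSPA1A most, on at most 102 estimated fragments in each library.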

Other observations

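The promoter letters and the direction of the ratios can be set side by side, a comparison made after the values were seen and not tested. The 6 genes that were higher in both knockdown libraries were HSPA1A, HSPA1B, HSPA8, HSP90AA1, HSP90AB1 and DNAJB1. All were among the 7 with a pair of heat shock units in a searched window, and HSPB1, lower in both, was the seventh. Of all genes in the promoter table, 16.2% hold these letters. Of all genes compared, 36.0% were higher in both lines, and that share was not computed for genes with the letters. The 3 genes without these letters were HSPA4, lower in both knockdown libraries, and HSPH1 and BAG3, which went opposite ways. The pair also occurs in ER genes of the list, CANX, lower in both lines (−0.35 and −0.35), and SIL1 (0.16 and −0.01). HSPA1A and HSPA1B share most of their sequence and are not independent of each other.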
